A study of Mus musculus with 50 samples.

Results

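The UDP-glucuronosyltransferases are enzymes of the endoplasmic reticulum that join glucuronic acid from UDP-glucuronic acid to bilirubin, steroids, bile acids, phenols and many drugs, so that these can be excreted in bile or urine. In mice the Ugt1a enzymes come from 1 locus in which each gene has its own leading exon, with its own promoter, spliced to a set of exons common to the locus, whereas the Ugt2b enzymes come from separate genes in a cluster. The liver is their main site, hepatocytes are the main cells that make them, and their genes respond to hepatocyte transcription factors, to xenobiotic receptors and, for some members, to sex and growth hormone.

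The 10 genes described here, Ugt1a1, Ugt1a5, Ugt1a6b, Ugt1a9, Ugt2b1, Ugt2b5, Ugt2b34, Ugt2b35, Ugt2b36 and Ugt2b38, were taken by name from the 12180 genes of the expression table. The Ugt1a members lie on the plus strand at chr1:88070800-88219003 and the Ugt2b members at chr5:86889767-87424203 (GRCm38). The table held 5 further Ugt genes (Ugt1a6a, Ugt2b37, Ugt2a3, Ugt3a1 and Ugt3a2). RNA was sequenced from the livers of male offspring of (B6.A4 x C57BL/6J)F1 mice crossed to (B6.A6 x C57BL/6J)F1 mice. In the strains B6.A4 and B6.A6, chromosome 4 or chromosome 6 of A/J replaces that of C57BL/6J. Each offspring thus had 1 chromosome 4 and 1 chromosome 6 wholly from C57BL/6J. All animals shared the C57BL/6J background and differed in which parts of chromosomes 4 and 6 came from A/J, and genotypes were not used here. The labels call the mice adult and F2, and the study's methods call them young, fasted N2 backcross animals. The labels give 1 group, liver, with no treatment, so the comparisons were made along the library number, the animal number and the levels of other transcripts.

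There were 50 libraries and 48 animal numbers. Animal I191 stood on libraries 8 and 10, and animal I248 on libraries 22 and 55, and the libraries of each pair differed as much as libraries of different animals (54.2nd and 81.8th percentile of all 1225 library pairs by the SD of their log2 differences). Reads assigned to genes numbered 9430126 to 24355042 per library (median 10791083). Hepatocyte markers summed to 84650.7 to 132273 normalised counts, with 9 of 10 listed markers in the table. Of 10 listed cholangiocyte markers, 6 were in the table and summed to 32.3 to 60.0, and Krt7, Cftr, Muc1 and Tspan8 were not among its rows. In liver tissue, fewer cells of a type and less RNA per cell cannot be told apart.

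All 10 genes had reads in every library. Values are given as normalised counts, on the scale the authors deposited, in which 1 read was worth 0.0317 to 0.0864. Ugt2b5 had the highest mean, 502 ± 124.2 (SD, n = 50), and ranged from 268 to 832. Ugt2b36 followed at 428 ± 71.9 (247 to 593), and Ugt2b1, an enzyme of steroid and drug conjugation, at 370 ± 130 (119 to 681). Ugt2b34 had 293 ± 42.3 (189 to 401) and Ugt2b35 148 ± 32.2 (69.5 to 240). In the Ugt1a locus, Ugt1a1, the enzyme that conjugates bilirubin, had 135 ± 20.1 (86.2 to 168). Ugt1a9, an enzyme of phenols and many drugs, had 57.4 ± 14.2 (33.9 to 89.4), and Ugt1a6b, an enzyme of small planar phenols, had 23.9 ± 4.72 (14.8 to 34.2). The least abundant were Ugt2b38 with 8.28 ± 4.69 (1.44 to 20.9) and Ugt1a5 with 4.13 ± 1.55 (1.95 to 8.86), which still rested on at least 22 and 30 reads in each library.

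Levels were compared between genes per kilobase of exon that no other gene overlaps, since reads in the exons common to the Ugt1a locus are ambiguous in a count by gene. That length took in every annotated exon, from 879 bases for Ugt1a9 to 4312 for Ugt2b34, so levels on this scale depend on the annotation. On that scale Ugt2b5 stood at 270 ± 66.8 normalised counts per kb and was above Ugt2b36 (208 ± 34.9) in all 50 libraries. Ugt2b36 was above Ugt1a1 (148 ± 22) in 45 of 50. Ugt1a1 and Ugt2b1 (144 ± 50.4) could not be ordered, since Ugt1a1 was the higher of the 2 genes in 27 libraries. Ugt2b1 exceeded Ugt2b34 (68.0 ± 9.80) in 49 libraries, while Ugt2b34 and Ugt1a9 (65.3 ± 16.1) overlapped, with Ugt2b34 higher in 29. Ugt1a9 exceeded Ugt2b35 (43.9 ± 9.59) in 41 libraries, Ugt2b35 exceeded Ugt1a6b (25.5 ± 5.03) in all 50, and Ugt1a6b exceeded Ugt1a5 (4.63 ± 1.74) in all 50. Ugt1a5 and Ugt2b38 (4.38 ± 2.48) overlapped, with Ugt1a5 higher in 30.

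**Figure D1:**
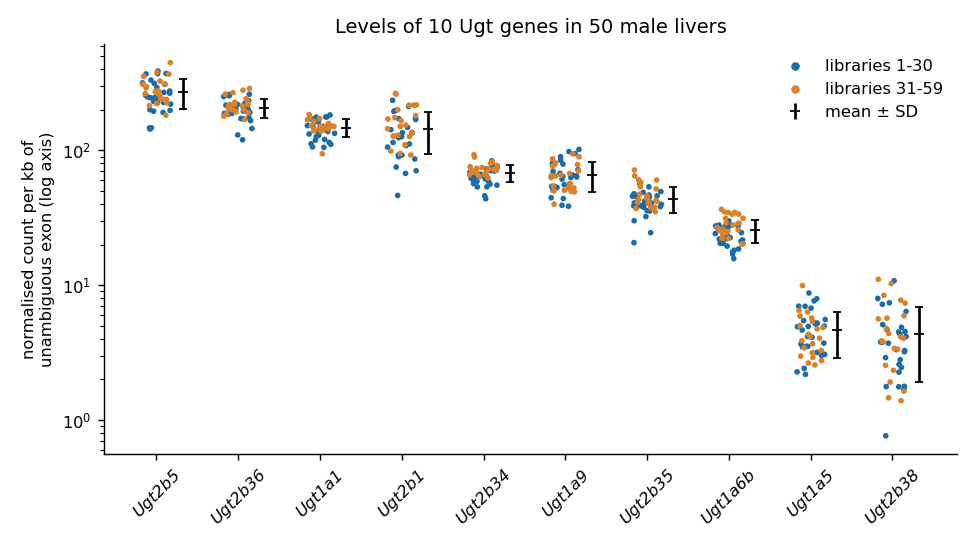
Level of each gene in each of the 50 libraries, as normalised count per kb of exon that no other gene overlaps (log axis), ordered by mean. Points are libraries coloured by library number, and bars give the mean ± SD; Ugt2b5 is at the top with 270 per kb, and Ugt1a5 and Ugt2b38 lie together near 4.

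The sequence shared between genes bears on these levels, because reads that fit several places were not assigned to a gene. Of all 31-base stretches of the Ugt2b5 transcripts, 44.9% also occurred in those of Ugt2b38, and 24.7% of its 100-base stretches did. For Ugt1a6b, 64.8% of the 31-base stretches outside the common exons occurred in Ugt1a6a. Ugt1a1 shared none of its own leading exon at that length, and Ugt2b1 shared 0.826% with any gene. Ugt2b36, which the values below tie closely to Ugt2b5, shared 11.99% of its 31-base stretches with any other gene.

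The genes differed in how much they varied from liver to liver. Ugt2b38 had a coefficient of variation of 56.6%, Ugt1a5 of 37.6% and Ugt2b1 of 35.1%, compared with a median of 12.3% over the 4233 genes with a mean of 20 or more and of 17.2% over all genes, Ugt2b38 and Ugt1a5 being below that mean. Ugt2b38 was 14.5 times as high in its highest library (library 40) as in its lowest (library 24), and Ugt2b1 was 5.71 times as high in library 32 as in library 24. Ugt1a1 (14.9%) and Ugt2b34 (14.4%) varied least among the members. Sampling of reads could give 0.149% of the variance of Ugt2b1, 2.56% for Ugt2b38 and 11.6% for Ugt1a5, the largest such share of the 10. Library 32 had the highest value of 4 members (Ugt2b1, Ugt2b5, Ugt2b34 and Ugt2b36), and library 24 the lowest value of 3 (Ugt2b1, Ugt2b5 and Ugt2b38).

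The 6 Ugt2b genes and Ugt1a6b were for the most part related positively to each other. Ugt1a1, Ugt1a5 and Ugt1a9 formed a looser set, in which Ugt1a5 and Ugt1a9 (r = 0.28) did not pass the test below. Some of their pairs with Ugt2b genes were related negatively. A pair was counted as related when each gene passed the test for the other's level (limma, Benjamini-Hochberg adjusted over all genes, 0.05). Many genes of the table passed in such fits: 11.4% of 11430 genes with Ugt1a1, 10.1% with Ugt1a5, 26.5% with Ugt1a6b, 13.8% with Ugt1a9, 31.3% with Ugt2b1, 29.9% with Ugt2b5, 31% with Ugt2b34, 13.2% with Ugt2b35, 28% with Ugt2b36 and 17.2% with Ugt2b38. Against this background, 32 of 45 member pairs passed, 22 with a positive and 10 with a negative relation. Among the 6 Ugt2b genes, 14 of 15 pairs passed and all of these were positive. Ugt1a6b joined them, with a positive relation that passed in 6 of 6 pairs although it lies in the other locus. Ugt1a1, Ugt1a5 and Ugt1a9 went the other way: 9 of their 18 pairs with Ugt2b genes passed, all 9 of them negative, 5 for Ugt1a5, 3 for Ugt1a9 and 1 for Ugt1a1.

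The closest pair was Ugt2b5 and Ugt2b36, with Pearson r = 0.95 and Spearman rho = 0.92 (permutation p = 1e-05 each, the smallest that 100000 permutations can give), and r = 0.93 once the 2 libraries with the most extreme Ugt2b5 were set aside. Within libraries 1 to 30 (n = 28) r was 0.95, and within libraries 31 to 59 (n = 22) it was 0.94. Ugt2b34 and Ugt2b35 followed with r = 0.84 and rho = 0.79 (permutation p = 1e-05 each), 0.75 without the 2 most extreme libraries, and 0.85 and 0.76 within the library sets. Ugt2b5 and Ugt2b34 had r = 0.81 and rho = 0.77 (permutation p = 1e-05 each), 0.78 without the 2 most extreme libraries, and 0.84 and 0.80 within the sets. All 3 pairs were as close within each set of libraries as over all of them, to within 0.08 in r. All 15 Ugt2b pairs were positive in both sets, but some were much weaker in libraries 31 to 59. For Ugt2b36 and Ugt2b38 r was 0.74 in libraries 1 to 30 and 0.22 in libraries 31 to 59, and for Ugt2b1 and Ugt2b36 0.85 and 0.42.

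The most opposed pair was Ugt1a5 and Ugt2b5, with r = -0.60 and rho = -0.59 (permutation p = 2e-05 each), r = -0.52 without the 2 most extreme libraries, and -0.68 and -0.45 within the library sets. Ugt1a9 and Ugt2b5 had r = -0.60 and rho = -0.68 (permutation p = 1e-05 each), r = -0.60 without the 2 most extreme libraries, and -0.58 and -0.66 within the sets. Ugt1a5 and Ugt2b38 had r = -0.56 and rho = -0.55 (permutation p = 4e-05 and 7e-05), r = -0.53 without the 2 most extreme libraries, and -0.70 and -0.38 within the sets. Over the 45 pairs, 43 had the same sign in both library sets. Both groups of genes also sloped in opposite directions along animal number, and in residuals after library set and animal number 8 negative pairs had a permutation p under 0.05, against 15 before, and 21 positive pairs, against 23. All values share a scale set by the total of each library.

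**Figure D2:**
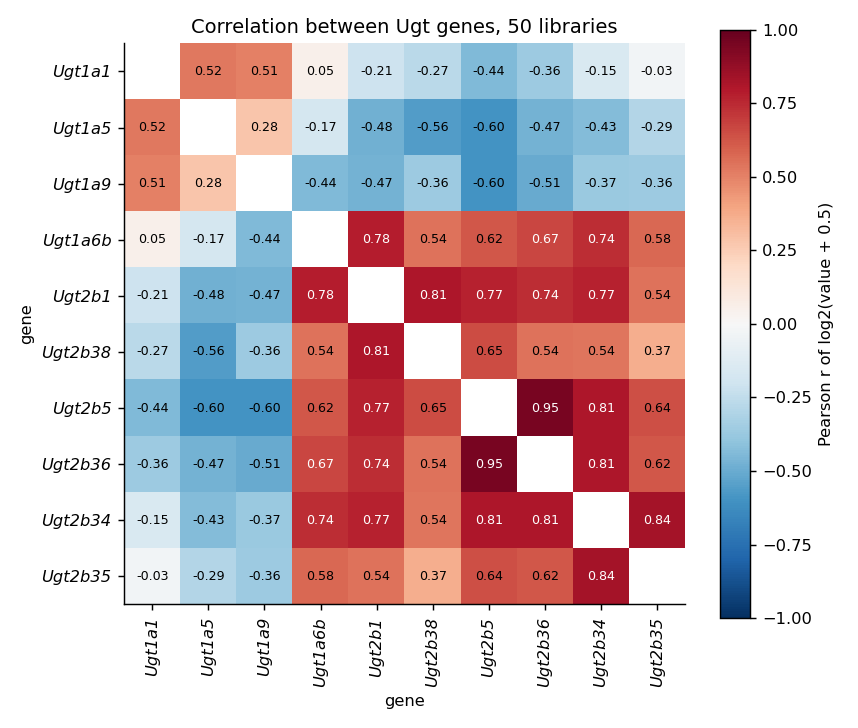
Pearson r between the log2 levels of each pair of genes over 50 libraries, red for positive and blue for negative. The Ugt2b genes and Ugt1a6b form a positive block with r from 0.37 to 0.95, and Ugt1a1, Ugt1a5 and Ugt1a9 are negative against every Ugt2b gene.

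Within the Ugt1a locus, the genes share their downstream exons, and 3 of their 6 pairs passed, 2 positive and 1 negative. Ugt1a1 was related to Ugt1a5 (r = 0.52, rho = 0.52, permutation p = 0.0001 and 0.00015; r = 0.46 without the 2 most extreme libraries, 0.57 and 0.52 within the library sets) and to Ugt1a9 (r = 0.51, rho = 0.56, permutation p = 0.00021 and 5e-05; r = 0.54 without the 2 most extreme, 0.59 and 0.37 within the sets). Ugt1a6b was opposed to Ugt1a9 (r = -0.44, rho = -0.48, permutation p = 0.00106 and 0.00031; r = -0.49 without the 2 most extreme, -0.40 and -0.60 within the sets). The normalised count of Ugt1a9 was 1.08 to 4.77 times that of Ugt1a6b, with a median of 2.39. Of the counts on the 4 Ugt1a members, Ugt1a1 made up 61.2% ± 3.22 (SD, n = 50), Ugt1a9 25.9% ± 4.44, Ugt1a6b 11.1% ± 2.68 and Ugt1a5 1.86% ± 0.593, so Ugt1a1 was the largest part in each library, at 54.1% or more.

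Promoter sequence was available for 9 of the 10 genes in the RefSeq table (GRCm38.p6), all but Ugt1a6b. Since the Ugt2b genes moved together, the last 100 bases before each RefSeq start are printed, 5′ to 3′ on the strand of the gene. Capitals mark the letters GTTA and TTAAC with any 4 bases between them, which these promoters share. These letters were chosen after the sequences were seen.
Ugt2b1, chr5:86926504-86926603, minus strand: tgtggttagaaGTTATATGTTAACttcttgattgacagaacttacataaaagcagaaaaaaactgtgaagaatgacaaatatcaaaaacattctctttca
Ugt2b5, chr5:87140341-87140440, minus strand: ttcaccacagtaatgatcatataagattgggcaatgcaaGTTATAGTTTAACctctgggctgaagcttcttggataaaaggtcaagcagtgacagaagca
Ugt2b34, chr5:86906938-86907037, minus strand: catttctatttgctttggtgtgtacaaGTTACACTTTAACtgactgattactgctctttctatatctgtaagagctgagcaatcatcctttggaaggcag
Ugt2b35, chr5:87000760-87000859, plus strand: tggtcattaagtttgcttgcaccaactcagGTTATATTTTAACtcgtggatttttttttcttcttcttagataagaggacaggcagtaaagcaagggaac
Ugt2b36, chr5:87092556-87092655, minus strand: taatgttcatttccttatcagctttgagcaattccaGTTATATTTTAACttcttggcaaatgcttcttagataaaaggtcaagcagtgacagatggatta
Ugt2b38, chr5:87424204-87424303, minus strand: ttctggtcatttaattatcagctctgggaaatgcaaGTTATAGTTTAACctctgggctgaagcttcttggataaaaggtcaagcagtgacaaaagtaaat

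These letters stood on the gene's strand in 6 of 6 Ugt2b promoters, at 61 to 89 bases before the start, and in 0 of the 3 Ugt1a promoters, whereas 0.170% of all 32851 promoters held them on either strand within the 250 bases before the start. The letters were picked from these Ugt2b promoters, which belong to related genes, so the 6 of 6 follows from that choice. A link between the letters and the levels was not tested. The sequence AGGTCA, a site that many nuclear receptors bind, occurred on either strand in 5 of the 9 promoters and in 14.02% of all. In Ugt2b5, Ugt2b36 and Ugt2b38 it stood at 22 to 25 bases before the start. The Ugt2b5 and Ugt2b38 promoters were the most alike, with 81.5% identity over 250 bases, and Ugt2b5 and Ugt2b36, the pair closest in level, had 60.0%. Pairs of a Ugt1a and a Ugt2b promoter had 48.2% to 54.3% by the same alignment.

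The letters of GCGTG (28.2% of all promoters), the core bound by the aryl hydrocarbon receptor, and of TGA and GC with any 4 bases between them (35.2%), the core of the antioxidant response element, were found in 1 and 2 of the 9 promoters. Neither TATAAA (12.4% of all) nor 2 copies of AGGTCA with any 4 bases between them (0.0152%) was found in the 9 promoters. A match is a description of letters, not of a bound site.

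Animal numbers ran from I114 to I296 and the labels do not give their meaning. Along them, Ugt1a1, Ugt1a5 and Ugt1a9 were higher and 5 Ugt2b genes lower at high numbers. In all, 8 of 10 members passed the test (limma, adjusted over 11431 genes), where 14.2% of all genes did. Ugt1a9 had the steepest positive slope that passed: its normalised count had a median of 44.5 (lowest 33.9, highest 55.4) in the 9 libraries of animals I114 to I133, of 46.2 (34.4 to 69.0) in the 13 of animals I174 to I198, and of 62.7 (46.1 to 89.4) in the 28 of animals I215 to I296. The last block was the highest and overlapped with the other 2. The slope of Ugt1a9 was 0.50 ± 0.068 (SE) on the log2 scale per 100 animal numbers, or 1.42-fold (limma, adjusted p = 1.23e-05). Ugt1a1 had block medians of 125.7, 130 and 150 and a slope of 0.26 ± 0.052 (limma, adjusted p = 8.78e-04). Ugt1a5 had block medians of 3.32, 3.14 and 4.44 and a slope of 0.38 ± 0.12 (limma, adjusted p = 0.0224).

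Among the Ugt2b genes, Ugt2b5 had a median of 552 (490 to 832) in animals I114 to I133, of 584 (428 to 721) in animals I174 to I198, and of 432 (268 to 690) in animals I215 to I296. Its libraries of the last block were the lowest and again overlapped with the others. Its slope was -0.45 ± 0.079 (limma, adjusted p = 2.08e-04). Ugt2b1 had block medians of 444, 450 and 322 and a slope of -0.47 ± 0.13 (limma, adjusted p = 0.0106). The slopes of Ugt2b36 and Ugt2b34 were -0.26 ± 0.060 and -0.19 ± 0.055 (limma, adjusted p = 0.00223 and 0.0165). Ugt2b38 passed narrowly with -0.56 ± 0.20 (limma, adjusted p = 0.0474) and did not pass without library 24 (-0.50, adjusted p = 0.0718). Ugt1a6b (-0.20 ± 0.074) and Ugt2b35 (-0.21 ± 0.084) did not pass (limma, adjusted p = 0.0651 and 0.0821).

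**Figure D3:**
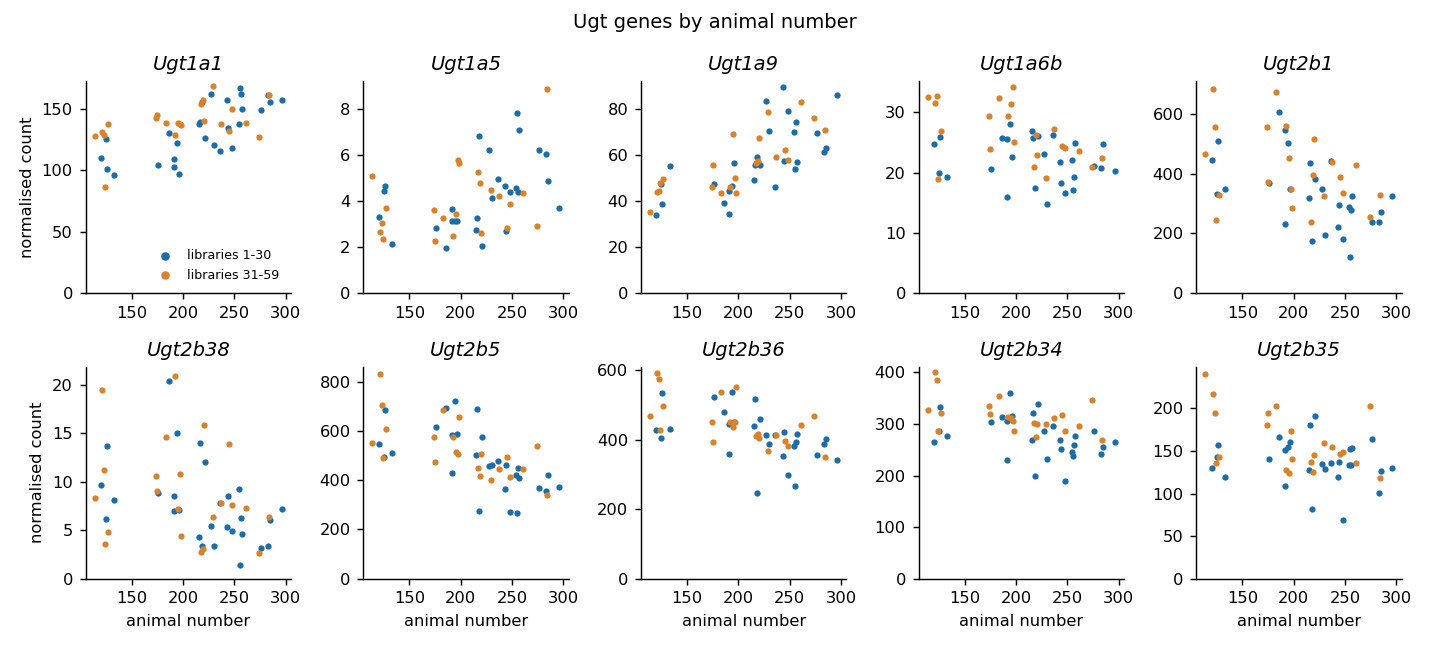
Normalised count of each gene against animal number in the 50 libraries, with libraries 1 to 30 in blue and 31 to 59 in orange. Ugt1a9 lies between 33.9 and 55.4 in animals I114 to I133 and reaches 89.4 in animals I215 to I296, and Ugt2b5 has its lowest libraries, down to 268, in the latter.

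Within each library set the relation to animal number kept its sign in all 10 genes. For Ugt1a9, r between its log2 level and animal number was 0.73 and rho 0.78 (permutation p = 1e-05 each), with 0.70 in libraries 1 to 30, 0.80 in libraries 31 to 59 and 0.68 without the 2 most extreme animal numbers. For Ugt2b5, r was -0.63 and rho -0.71 (permutation p = 1e-05 each), with -0.59 and -0.68 within the sets and -0.64 without the 2 most extreme. The numbers fall into 3 blocks, and with the block as a term 0 of 11431 genes passed (608 at an unadjusted p under 0.05), members included. The slopes within blocks had the same signs in all 10 members, among them 0.43 for Ugt1a9 and -0.41 for Ugt2b5 (95% confidence intervals 0.07 to 0.79 and -0.83 to 0.00), and 2 of the 10, Ugt1a5 and Ugt1a9, had an unadjusted p under 0.05. The slopes over all 50 libraries thus include differences between blocks of animals, and the labels do not say what else set the blocks apart.

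The make-up of the RNA moved with animal number too. The 10 genes with the highest means, led by Alb, took 18.9% to 24.02% of the counts of a library, and that share rose with animal number (r = 0.57, rho = 0.64, permutation p = 2e-05 and 1e-05), with r = 0.63 without the 2 most extreme animal numbers and 0.44 and 0.67 within the library sets. Its r with the members ran from -0.62 for Ugt2b5 to 0.54 for Ugt1a9, and the permutation p was 0.0183 or less for each of the 10. After adjustment for this share, 62 of 11431 genes and 2 members, Ugt1a9 (slope 0.43, limma, adjusted p = 0.0106) and Ugt1a1 (slope 0.26, limma, adjusted p = 0.0439), passed. Its part in the slopes was not tested further. The level of Cyp2d9, a male-type cytochrome P450, as a covariate left 6 members past the threshold.

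**Figure D4:**
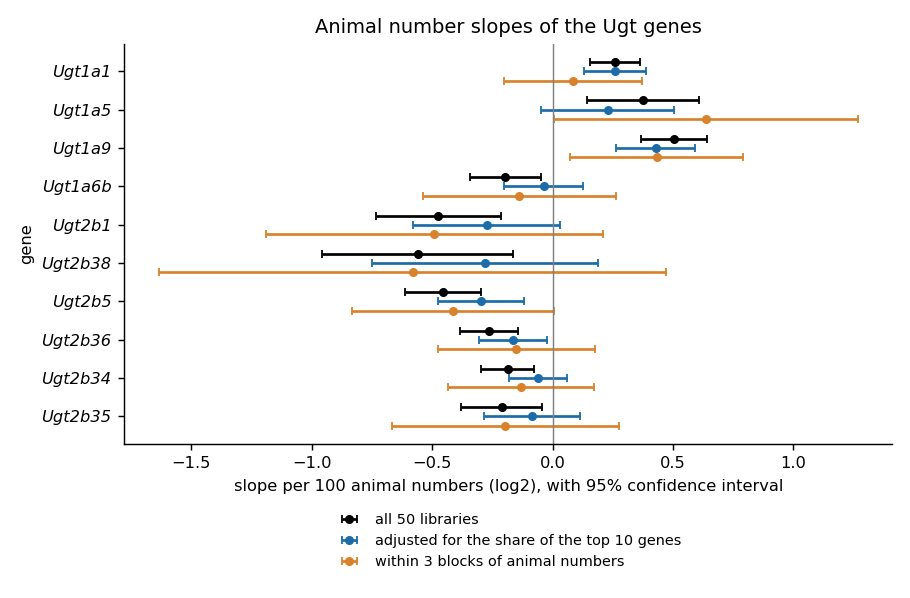
Slope of each gene per 100 animal numbers (log2) with its 95% confidence interval over all 50 libraries, after adjustment for the share of counts in the top 10 genes, and within 3 blocks of animal numbers. Ugt1a9 stands at 0.50, 0.43 and 0.43, and the interval of Ugt2b34, at -0.19 over all libraries, includes 0 in the other 2 fits.

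Between libraries 31 to 59 (n = 22) and libraries 1 to 30 (n = 28), 3 members passed and were higher in the later numbers, where 13.5% of all genes passed. Ugt2b34 had a median of 312 (270 to 401) in libraries 31 to 59 and of 272 (189 to 361) in libraries 1 to 30, which overlapped, with a difference of 0.21 ± 0.054 on the log2 scale (limma, adjusted p = 0.00818). Ugt1a6b had medians of 25.7 and 21.95 and a difference of 0.26 ± 0.071 (limma, adjusted p = 0.0120). Ugt2b35 had 148 and 135 and a difference of 0.24 ± 0.084 (limma, adjusted p = 0.0492), which did not pass under several other settings. After adjustment for the share of the top 10 genes none of the 3 passed (limma, adjusted p = 0.0519 for Ugt2b34, 0.0700 for Ugt1a6b and 0.184 for Ugt2b35), while 1190 genes of the table did. The difference of Ugt2b1 was 0.35 ± 0.14 (limma, adjusted p = 0.0797). The labels give no meaning to library numbers, and no member passed the test of a difference in its animal number slope between the sets (limma, 0 of 10, and 0 of 10 at an unadjusted p under 0.05), where 0.035% of all genes passed and 8.23% had such an unadjusted p. Among the 4 genes that passed was Ugt1a6a, whose slope was higher by 0.77 ± 0.16 in libraries 31 to 59 (limma, adjusted p = 0.0403).

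The parts of chromosomes 4 and 6 that segregate were followed by 2 transcripts that were nearly absent in some libraries. Eno1b was at 0 to 0.405 in 29 libraries and at 19.4 to 42.8 in 21, and Gm13394 at 0.160 to 7.94 in 18 and at 84.4 to 163 in 32. Both are annotated outside chromosomes 4 and 6, but of the 12 genes that passed with Eno1b (0.105% of 11430) 8 lay on chromosome 4, from 133.3 to 155.9 Mb, and of the 16 that passed with Gm13394 (0.14%) 15 lay on chromosome 6, from 120.9 to 146.6 Mb. The Ugt genes lie on chromosomes 1 and 5, which do not segregate, and 0 of 10 passed with either transcript by limma and 0 by edgeR. At an unadjusted p under 0.05, 0 members were related to Eno1b (11.3% of all genes) and 2 to Gm13394 (6.28% of all genes), and 0 to Gm13394 with Cyp2d9 as a covariate. These were Ugt2b1 (0.15 per SD of Gm13394, 95% confidence interval 0.01 to 0.30, limma, adjusted p = 0.764) and Ugt2b38 (0.22, 0.01 to 0.43, limma, adjusted p = 0.767). Ugt2b1 had a median of 392 (182 to 681) in the 32 libraries high in Gm13394 and of 326 (119 to 439) in the other 18, so the ranges overlapped. The Ugt2b38 medians were 8.53 and 6.24. These tests reach the distal parts of the 2 chromosomes that the transcripts follow, and other parts were not tested.

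The next question was which liver genes moved with each member. The lists include genes that differ between male and female liver, although all animals were male. Of 21 tested genes of the male type, 19 were higher in libraries with more Ugt2b1, Ugt2b5, Ugt2b36 or Ugt2b38, 18 with more Ugt1a6b or Ugt2b34, and 15 with more Ugt2b35, and 0 were lower in these 7 fits. Of all genes, 13.2% (Ugt2b35) to 31.3% (Ugt2b1) passed in them. The opposite held for 13 of 21 with Ugt1a9 and 11 with Ugt1a5, which were lower, and 0 were higher. With Ugt1a1, 2 of 21 (9.52%) were lower and 0 higher, where 11.4% of all genes passed. The list's median slope was 0.61 on the log2 scale per SD of Ugt2b1, 0.50 per SD of Ugt2b5 and -0.32 per SD of Ugt1a9, where the median over all genes was 0.00 in each fit. Ugt2b38 belongs to the male type itself and was left out of its list. Mup7, Mup20 and Mup21 in the list are members of a family of similar genes, so their values are uncertain. Local A/J alleles at list genes on chromosomes 4 and 6, such as the Mup genes on chromosome 4, were not tested.

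Complement component C6, a male-type gene, was 0.71 ± 0.048 (SE) higher on the log2 scale per SD of Ugt2b1 (limma, adjusted p = 3.87e-16). Slco1a1, a hepatic uptake carrier for organic anions, was 0.66 ± 0.046 higher per SD of Ugt2b1 (limma, adjusted p = 7.03e-16). Gstp1, a glutathione transferase, was 0.47 ± 0.045 higher per SD of Ugt2b5, and Hsd3b5, a steroid dehydrogenase, 1.03 ± 0.11 higher. Cyp7b1, an oxysterol hydroxylase, was 1.05 ± 0.096 higher per SD of Ugt2b38, and Cyp4a12b, a fatty acid hydroxylase, 0.65 ± 0.066 higher. Selenbp2 was 0.98 ± 0.10 higher per SD of Ugt1a6b. With Ugt1a9, C6 and Hsd3b5 were lower, with slopes of -0.50 ± 0.084 and -0.82 ± 0.14 per SD.

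Of 16 tested genes of the female type, 7 to 11 were lower and 0 higher with each of the 6 Ugt2b genes, and 10 were lower with Ugt1a6b. These are 43.8% to 68.8% of the list, where 13.2% to 31.3% of all genes passed. With Ugt1a9, 7 were higher and 1, the acyl-CoA thioesterase Acot4, lower (-0.15 ± 0.052), where 13.8% of all genes passed. With Ugt1a5 and Ugt1a1, 2 of 16 were higher and 0 lower (12.5% each, near the 10.1% and 11.4% of all genes). Cyp17a1, a steroid hydroxylase and lyase, was -0.91 ± 0.095 per SD of Ugt2b1 and 0.76 ± 0.12 per SD of Ugt1a9. Cyp2b9 was -1.54 ± 0.17 per SD of Ugt2b1. Cyp39a1, an oxysterol hydroxylase, was 0.40 ± 0.042 per SD of Ugt1a9 (limma, adjusted p = 4.64e-09).

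**Figure D5:**
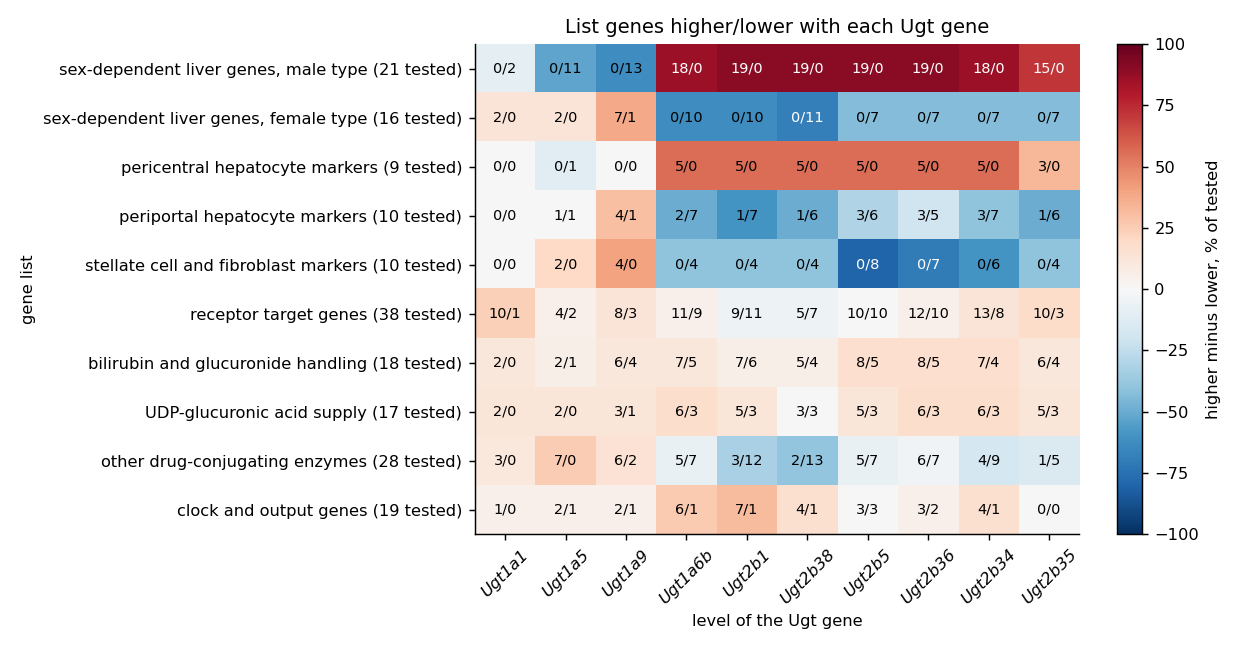
Number of genes of each list that were higher and lower (higher/lower, adjusted p under 0.05) with the level of each Ugt gene, coloured by the difference as a percent of the genes tested. The male-type row runs from 0/13 for Ugt1a9 to 19/0 for Ugt2b1, Ugt2b38, Ugt2b5 and Ugt2b36, and the female-type row from 7/1 for Ugt1a9 to 0/11 for Ugt2b38.

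Adjustment for animal number changed these counts to different degrees. With animal number as a covariate, 19 of 21 male-type genes passed with Ugt2b1, Ugt2b5 and Ugt2b36 and 18 with Ugt1a6b, Ugt2b34 and Ugt2b38. With Ugt2b35 the count fell from 15 to 7, with Ugt1a5 from 11 to 1 and with Ugt1a9 from 13 to 0. Of all 11430 genes, 851 passed with Ugt2b35, and 950 (Ugt2b38) to 2784 (Ugt2b1) with the other Ugt2b genes and Ugt1a6b. After adjustment for the share of the top 10 genes, 15 to 19 passed with the 5 Ugt2b genes other than Ugt2b35 and with Ugt1a6b, 1 with Ugt2b35, 1 with Ugt1a5 and 3 with Ugt1a9. With Cyp2d9, itself a gene of the list, as a covariate, 9 passed with Ugt2b36, 10 with Ugt1a6b, 11 with Ugt2b38, 13 with Ugt2b5 and Ugt2b34, 15 with Ugt2b1, 3 with Ugt2b35, 12 with Ugt1a9, 8 with Ugt1a1 and 4 with Ugt1a5. Among all 11430 genes, the numbers in these fits were 1928 for Ugt2b36, 2056 for Ugt1a6b, 494 for Ugt2b38 and 2422 for Ugt2b5. They were 2716 for Ugt2b34, 3484 for Ugt2b1, 813 for Ugt2b35, 1065 for Ugt1a9, 1553 for Ugt1a1 and 623 for Ugt1a5. Of the 16 female-type genes, those higher with Ugt1a9 went from 7 to 1 with animal number as a covariate, and those lower with Ugt2b38 from 11 to 9 with animal number and to 1 with Cyp2d9. Over all genes, with animal number as a covariate, the number that passed with Ugt1a9 went from 1573 to 1. It went from 1298 to 128 with Ugt1a1 and from 1153 to 49 with Ugt1a5, compared with 3582 to 2784 for Ugt2b1. Among residuals after library set and animal number, r between Ugt1a1 and Ugt1a9 went from 0.51 to 0.10, and that between Ugt2b5 and Ugt2b36 from 0.95 to 0.93.

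Genes that mark positions in the liver lobule also moved with the Ugt2b genes. Of 9 pericentral markers tested, 5 (55.6%) were higher and 0 lower with each Ugt2b gene other than Ugt2b35, for which 3 (33.3%) were higher. With Ugt1a6b 5 were higher. In these fits 13.2% (Ugt2b35) to 31.3% (Ugt2b1) of all genes passed. Cyp1a2, a target of the aryl hydrocarbon receptor, was 0.39 ± 0.041 per SD of Ugt2b1, and Cyp2c29, a target of the constitutive androstane receptor, 0.25 ± 0.032 per SD of Ugt2b5. Of 10 periportal markers, 5 to 7 were lower and 1 to 3 higher with each Ugt2b gene. Aldh1b1, a mitochondrial aldehyde dehydrogenase, was -0.49 ± 0.069 per SD of Ugt2b1, whereas Cyp2f2, which the male-type list also holds, was 0.14 ± 0.025. Of 10 stellate cell and fibroblast markers, 4 to 8 were lower with each Ugt2b gene and 4 were higher with Ugt1a9, among them Ecm1 (-0.25 ± 0.033 per SD of Ugt2b5 and 0.16 ± 0.043 per SD of Ugt1a9). The share was 40% with Ugt2b1, near the 31.3% of all genes, 80% with Ugt2b5 (29.9% of all) and 40% with Ugt1a9 (13.8% of all). The summed level of these 10 markers ranged from 140 to 340 normalised counts, and their part in the relations was not tested.

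Among 26 transcription factors and receptors, 7 were higher and 0 lower with Ugt2b1, 8 and 0 with Ugt2b34, and 7 and 2 with Ugt2b5. These are 26.9%, 30.8% and 34.6% of the list, near the 31.3%, 31% and 29.9% of all genes in those fits. Hnf4a, a master factor of hepatocytes, was 0.15 ± 0.035 per SD of Ugt2b5 and -0.15 ± 0.035 per SD of Ugt1a5. Nr1i3, the constitutive androstane receptor, was 0.21 ± 0.046 per SD of Ugt2b5 and -0.22 ± 0.046 per SD of Ugt1a9.

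Targets of the xenobiotic receptors did not share 1 direction. Of 38 tested targets, 10 were higher and 10 lower with Ugt2b5 (52.6%, against 29.9% of all genes), and 8 and 3 with Ugt1a9 (28.9%, against 13.8%). Cyp2b10, the best-known target of the constitutive androstane receptor, was 0.95 ± 0.12 per SD of Ugt1a9 (limma, adjusted p = 1.15e-06) and -0.80 ± 0.14 per SD of Ugt2b5 (limma, adjusted p = 2.29e-05), opposite to the receptor's own transcript. With Ugt1a1, 10 targets were higher and 1 lower (28.9%, against 11.4% of all genes). Those higher with Ugt1a1 included Cyp4a10 (0.21 ± 0.035), a fatty acid hydroxylase and target of PPAR alpha that rises in fasting. Gclc and Gclm, the subunits of glutamate-cysteine ligase, were 0.30 ± 0.038 and 0.13 ± 0.019 per SD of Ugt2b34.

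The list drawn up around the sugar donor holds genes that do not make it, such as Nt5e, and its genes went in both directions. Of 17 tested, 5 were higher and 3 lower with Ugt2b5 (47.1%, against 29.9% of all genes), 6 and 3 with Ugt2b34 (52.9%, against 31%), and 3 and 3 with Ugt2b38 (35.3%, against 17.2%). Ugdh, which makes UDP-glucuronic acid from UDP-glucose, was 0.18 ± 0.036 per SD of Ugt2b5 and 0.21 ± 0.034 per SD of Ugt2b34. Nt5e, an ectonucleotidase, was -0.52 ± 0.049 per SD of Ugt2b5 and 0.39 ± 0.069 per SD of Ugt1a9. Of 18 genes of bilirubin and glucuronide handling, 8 were higher and 5 lower with Ugt2b5 (72.2%, against 29.9% of all genes). Slco1b2, a carrier that takes up bilirubin and its conjugates, was 0.21 ± 0.028 per SD of Ugt2b34, and Abcc2, the canalicular exporter of glucuronides, 0.23 ± 0.032. Slco1a4 was -0.30 ± 0.040 per SD of Ugt2b5. With Ugt1a1 2 of the 18 were higher and 0 lower (11.1%, where 11.4% of all genes passed).

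Among other conjugating enzymes, more passed as lower than as higher with each of the 6 Ugt2b genes. Of 28 tested, 3 were higher and 12 lower with Ugt2b1 (53.6%, against 31.3% of all genes), and 2 and 13 with Ugt2b38 (53.6%, against 17.2%). With Ugt2b5 and Ugt2b36 the numbers were nearly even, 5 and 7 (42.9%, against 29.9%) and 6 and 7 (46.4%, against 28%). With Ugt1a5, 7 were higher and 0 lower (25%, against 10.1%). Sult1a1, a phenol sulfotransferase, was -0.29 ± 0.035 per SD of Ugt2b1, and Gstt3, a glutathione transferase, was -0.48 ± 0.060 per SD of Ugt2b1 and 0.48 ± 0.059 per SD of Ugt1a9. Of the 5 other Ugt genes, Ugt2a3 was 0.23 ± 0.023 and Ugt3a1 0.30 ± 0.029 per SD of Ugt2b1, and both fell with animal number, by 0.29 ± 0.067 and 0.30 ± 0.091. Ugt2b37 was 0.56 ± 0.081 per SD of Ugt2b38. Ugt1a6a, in which 64.8% of the 31-base stretches of Ugt1a6b outside the common exons also occur, was -0.09 ± 0.055 per SD of Ugt1a6b (limma, adjusted p = 0.214).

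Of clock genes and their outputs, 19 were tested, and 7 were higher and 1 lower with Ugt2b1, and 2 and 1 with Ugt1a9 (42.1% and 15.8% of the list, where 31.3% and 13.8% of all genes passed). Nr1d2, a repressor in the clock, was 0.22 ± 0.044 per SD of Ugt2b1, and Npas2, an activator, was -0.54 ± 0.088 per SD of Ugt2b5. Of 22 acute-phase genes, 4 were higher and 8 lower with Ugt2b1 (54.5%), 5 and 1 with Ugt1a9 (27.3%). Of 24 genes that respond to fasting, 0 were higher and 7 lower with Ugt2b1 (29.2%, near that of all genes), and 5 were higher and 1 lower with Ugt1a9 (25%, against 13.8%). H19 and Cd24a, the 2 tested genes of early life, were lower with Ugt2b1 (-0.74 ± 0.14 and -0.12 ± 0.042). Endothelial, leukocyte, erythroid, cholangiocyte and hepatocyte markers formed 5 further lists. The numbers higher and lower with Ugt2b5 were, in that order, 0 and 6 of 10, 0 and 0 of 8, 1 and 4 of 6, 0 and 3 of 6, and 1 and 4 of 9. In that fit 29.9% of all genes passed. With Ugt2b38 they were 0 and 0, 0 and 0, 1 and 4, 0 and 1, and 1 and 2, where 17.2% of all genes passed.

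The genes most like each member in their order over the 50 libraries were named by Spearman rho among genes with a mean of 5 or more, other Ugt genes left out. For Ugt2b1 they were C6 (rho = 0.91), Cyp4v3 (0.88) and Selenbp2 (0.87). For Ugt2b5 they were the glyoxalase Glo1 (0.90), Slc22a30 (0.87) and the aldehyde oxidase Aox3 (0.87), and the same 3 led for Ugt2b36 (0.88 for Glo1, 0.85 for Aox3 and 0.82 for Slc22a30). Ugt2b34 was most like Cyb5b (0.84), Twsg1 (0.83) and Arhgap35 (0.82), and Ugt2b35 most like Enpp3 (0.79), the vitamin D hydroxylase Cyp2r1 (0.74) and Gclc (0.74). Ugt2b38 was most like the complement component C8b (0.83), Cyp4a12b (0.79) and Cyp7b1 (0.79). In the Ugt1a locus, Ugt1a6b was most like catalase (Cat, 0.83), Selenbp2 (0.80) and Mup1 (0.80), and Ugt1a9 like Cyp39a1 (0.85), Cdcp1 (0.74) and Gstt3 (0.73). Ugt1a1 was most like Lclat1 (0.75), Atp6v0a1 (0.74) and Eftud2 (0.73), and Ugt1a5 like Raet1d (0.72) and Parn (0.66).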

How the data were processed

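Liver RNA was sequenced with a stranded poly(A) kit. Per the study's methods, the authors trimmed the reads, aligned them with HISAT2 to GRCm38.p5, counted them by gene with HTSeq 0.11.1, removed genes of low count and scaled the libraries with edgeR. The submitters' processing notes name Trim Galore and FastQC. The deposited values are a normalised signal, gene counts divided by 1 factor per library: 100% of them came out as whole reads, within 0.01 read, once the value of 1 read was found. The table has 12185 rows, of which 5 are HTSeq's summary rows (17.0% to 25.3% of a column) and were left out.

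Library totals of gene reads were 9430126 to 24355042, and 3 reads, the smallest count taken as a level, corresponded to 0.0951 to 0.259. Values were tested as log2(value + 0.5) with limma 3.58.1 in R 4.3.3, two-sided, over 11431 genes with a mean of 1 or more, with Benjamini-Hochberg adjustment over all of them and a threshold of 0.05. A fold change is on the log2(value + 0.5) scale and understates the change of low genes. Fits used animal number, library set, Eno1b, Gm13394 and the level of each member per SD of its log2 value. Pairs of members were compared by Pearson's and Spearman's correlation with 100000 permutations over 45 pairs. Whole reads were tested with edgeR 4.0.16 as an alternative, which called 1596 genes with animal number. The fit was tested on simulated data with known slopes. The labels do not say whether the animals were of separate litters or days, so p-values measure the spread between these samples.

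The members and the gene lists were chosen with earlier results of these data known. Named were all members, at most 2 genes per list and direction with the smallest adjusted p in a fit, the 3 genes most like each member, and the 3 highest and 3 lowest pairs. The other Ugt1a pairs, Cyp2d9 and the promoter letters GTTA and TTAAC were chosen after their values were seen. Gene positions are from GENCODE M21, which named 12177 of 12180 genes, and promoters from RefSeq (GRCm38.p6). Some genes that these rules name, and the results that need them, are not reported here.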

Additional observations from a re-analysis of the deposited data

How the results depend on the processing

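Over the alternative settings of scaling, pseudocount, filter, covariates and libraries, 8 of 10 members passed with animal number, 7 to 9 under the settings planned at the outset and by edgeR and 6 with Cyp2d9 as a covariate, but 2 after adjustment for the share of the top 10 genes and 0 within blocks of animal numbers, where the genes of the whole table that passed went from 1625 to 62 and 0. With library set, 3 members passed, 2 or 3 under the other settings and 0 after adjustment for the share of the top 10 genes, and the genes that passed went from 1540 to 807 with the library total as a covariate. For the difference of the animal number slope between library sets, 4 genes became 2 when libraries 8, 10, 22 and 55 were left out.

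Genes that passed with the level of a member changed most under 4 covariates. With animal number as a covariate, 128 genes passed for Ugt1a1, 49 for Ugt1a5, 1 for Ugt1a9, 1536 for Ugt2b5, 851 for Ugt2b35, 1529 for Ugt2b36 and 950 for Ugt2b38. After adjustment for the share of the top 10 genes, 858 passed for Ugt1a1, 98 for Ugt1a5, 1372 for Ugt1a6b, 266 for Ugt1a9, 1974 for Ugt2b1, 1906 for Ugt2b5, 1657 for Ugt2b34, 449 for Ugt2b35, 1696 for Ugt2b36 and 542 for Ugt2b38. With Cyp2d9 as a covariate, 623 passed for Ugt1a5, 813 for Ugt2b35, 1928 for Ugt2b36 and 494 for Ugt2b38. With library set as a covariate, 1903 passed for Ugt1a6b and 865 for Ugt2b35, and without library 24, 727 for Ugt1a5. In residuals after library set and animal number, 8 negative pairs had a permutation p under 0.05 against 15 before, and 21 positive pairs against 23. The cause of these changes was not tested.

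Signs turned for slopes that did not pass in the first place. With library set, the difference of Ugt1a9 was 0.0225 with the library total, 0.0779 with animal number, 0.102 with the share of the top 10 genes and 0.00289 with Cyp2d9 as a covariate, and with the share that of Ugt1a5 was 0.0466 and that of Ugt2b38 -0.0122. With Eno1b, Ugt1a9 was at -0.00103 with animal number and -0.0162 with the share, and Ugt2b5 at 0.000607 without library 24 and 0.0139 with the share. With Gm13394 and Cyp2d9 as a covariate, Ugt1a5 was at 0.00694, Ugt2b34 at -0.0135, Ugt2b35 at -0.00424, Ugt2b36 at -0.0198 and Ugt2b5 at -0.0167. The difference of the Ugt1a9 slope between sets was 0.0334 without libraries 8, 10, 22 and 55. The covariates Cyp2d9 and share of the top 10 genes, the blocks and edgeR were chosen after seeing the data. Ugt1a5 and Ugt2b38 rest on the fewest reads, from 30 and 22 per library, and sequence shared with other genes limits Ugt1a6b, Ugt2b5 and Ugt2b38. Genotypes, litters and days were not analysed here.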
